A study of Rattus norvegicus with 24 samples.

Results

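The genes described here are 9 genes of growth arrest and of the p53 response, Gadd45a, Gadd45b, Gadd45g, Cdkn1a, Btg2, Mdm2, Ccng1, Bax and Bbc3, measured in blood mononuclear cells of rats with and without collagen-induced arthritis. They were taken by symbol from the probe sets that the platform annotation pairs with 1 gene only. Of the 9 genes, 7 had such a probe set, which gave 10 of the 31099 probe sets and 7 of the 14218 genes of the array. All 10 passed a filter on low values (above the 40th percentile of an array on at least 2 arrays), as did 20690 probe sets in all. Gadd45a, Gadd45b, Gadd45g, Ccng1 and Bbc3 had 1 probe set each, Cdkn1a had 2, called its brighter and dimmer probe set by their mean level over all arrays, and Mdm2 had 3, likewise called brightest, middle and dimmest. Bax was paired only with a probe set that carries another symbol as well and Btg2 with none, so neither is analysed here.

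All rats were female Wistar rats, each array came from a separate rat, and the 24 arrays formed 12 groups of 2. NOCIA rats were healthy, and CIA rats had arthritis raised by immunisation with bovine type II collagen. Both kinds of rat had a baseline group, taken before any therapy. NOCIA rats and the CIA arms MTX, PLA, MS and ANE were sampled at 1 hour and at 34 days. MTX rats received weekly methotrexate by peritoneal injection, PLA rats saline, MS rats mechanical stimulation with a rotated needle, and ANE rats no therapy but isoflurane at blood sampling in place of the ether used for PLA, MS and MTX. Every rat was killed at its own sampling, so no rat contributed to 2 time points. Mononuclear cells came from a Ficoll gradient and were stored until all were extracted as one batch.

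p53 is a transcription factor that is stabilised when DNA is damaged or replication stalls. Cdkn1a encodes p21, which inhibits cyclin-dependent kinases and halts the cell cycle. Mdm2 encodes the ubiquitin ligase that returns p53 to a low level, Ccng1 encodes cyclin G1, a p53 target that acts on Mdm2, and Bbc3 encodes Puma, a BH3-only protein that starts the mitochondrial path of cell death. The Gadd45 proteins are small nuclear proteins that bind p21, PCNA and the kinase upstream of p38 and JNK. Gadd45a is a direct p53 target, while Gadd45b and Gadd45g also answer cytokines and, for Gadd45b, NF-kB. Methotrexate blocks dihydrofolate reductase and so depletes the nucleotides needed for DNA synthesis, which is one of the stresses to which p53 answers.

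The 250 bases upstream of the annotated start of the 3 Gadd45 genes are shown because these genes stood together in the data below. Capitals mark matches to motifs searched on both strands, namely the E-box CACGTG, the box CCAAT, the GC box GGGCGG, the TATA box written TATAAA, the AP-1 site TGANTCA, the p53 decamer and the kappaB site. The sequences are from RefSeq on GRCr8, written along the gene's own strand, and all 3 genes lie on the minus strand.
Gadd45a, chr4:97486800-97487049: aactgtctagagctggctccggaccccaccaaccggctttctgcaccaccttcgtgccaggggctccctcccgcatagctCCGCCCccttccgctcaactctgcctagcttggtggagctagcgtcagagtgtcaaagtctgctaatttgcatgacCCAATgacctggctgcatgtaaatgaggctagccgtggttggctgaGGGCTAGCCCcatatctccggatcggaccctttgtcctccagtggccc
Gadd45b, chr7:9430719-9430968: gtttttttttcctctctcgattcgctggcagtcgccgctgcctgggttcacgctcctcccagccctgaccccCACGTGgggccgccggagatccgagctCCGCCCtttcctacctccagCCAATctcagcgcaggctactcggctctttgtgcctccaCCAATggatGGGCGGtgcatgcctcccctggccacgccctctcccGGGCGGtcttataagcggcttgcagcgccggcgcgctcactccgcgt
Gadd45g, chr17:13530352-13530601: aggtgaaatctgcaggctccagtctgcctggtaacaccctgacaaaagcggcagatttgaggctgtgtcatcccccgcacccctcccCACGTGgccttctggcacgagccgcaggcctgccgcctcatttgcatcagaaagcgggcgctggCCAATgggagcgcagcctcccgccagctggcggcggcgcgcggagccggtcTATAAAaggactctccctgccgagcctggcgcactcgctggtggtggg

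With -1 as the last base before the start, a p53 decamer lay at -48 in Gadd45a, and a CACGTG lay at -178 in Gadd45b and at -163 in Gadd45g. CCAAT matches lay at -94 in Gadd45a, at -131 and -92 in Gadd45b and at -99 in Gadd45g. GC boxes lay at -170 in Gadd45a and at -151, -83 and -47 in Gadd45b, and Gadd45g had a TATAAA at -48. Over 33469 upstream regions of the same length, 6.64% held a p53 decamer, 5.59% CACGTG, 34.0% CCAAT, 30.5% GGGCGG and 12.9% TATAAA. The AP-1 letters TGANTCA (6.34%) and the kappaB site (3.54%) had no match in these 3 windows, which says only that the letters are not in these bases. A p53 decamer also lay in the upstream region of 2 further members, Cdkn1a at -201 and Ccng1 at -232, shown with their neighbouring bases because both are classical p53 targets.
Cdkn1a, chr20:7150721-7150750, plus strand: tggctttcagGAACATGTCTtgacttgttc
Ccng1, chr10:25685089-25685118, minus strand: agacctgcccGGGCAAGCCTtggcattgaa

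These matches describe the letters only. The upstream region of Mdm2 held a CCAAT, 2 GC boxes and no p53 decamer, and those of Bbc3 and Bax are not shown.

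Levels are log2 values, so a difference of 1 is 2-fold, and levels of different probe sets are not compared with each other. Over the whole table values ran from 2.18 to 15.02, with array medians from 5.49 to 5.58. The 2 arrays of a group differed with an SD over probe sets from 0.23 (NOCIA baseline) to 0.876 (MS at 1 hour). T cell, B cell and monocyte markers were measured on all arrays (Cd3e from 9.74 to 11.97, Ms4a1 from 6.70 to 10.50, Csf1r from 9.0 to 10.63), and so were platelet and red cell transcripts (Pf4 from 14.22 to 14.71, Hbb from 14.56 to 14.86). In MS, rep 1 of both times stood apart, as did PLA rep 2 and ANE rep 1 of the 1-hour groups, with mean centred levels of the 15 measured platelet markers (of 20) of 1.35 at 34 days and 1.15 at 1 hour for MS, 1.0 for PLA and 0.88 for ANE, against -0.66 to 0.47 in the other 20. Results that rest on them are also given without them. In these bulk samples fewer cells of a type and less RNA per cell cannot be told apart.

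The 3 Gadd45 genes were lower in all 4 baseline arrays than in every later array, in healthy and arthritic rats alike. Gadd45b lay at 8.33 and 8.18 in NOCIA and at 8.55 and 7.92 in CIA at baseline. In the 20 later arrays it ran from 8.65 (MS 34-day rep 1) over a median of 10.18 to 10.99 (NOCIA 34-day rep 1). Gadd45a lay at 9.45, 9.12, 9.79 and 9.70 in the same 4 baseline arrays and from 9.96 over a median of 10.64 to 12.25 later. Gadd45g lay at 6.30, 6.45, 6.49 and 6.54 at baseline and from 6.63 over a median of 7.66 to 9.43 later. The gap was narrow at its edge, since the lowest later array exceeded the highest baseline array by little in each gene, while most later arrays lay well above it.

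**Figure D1:**
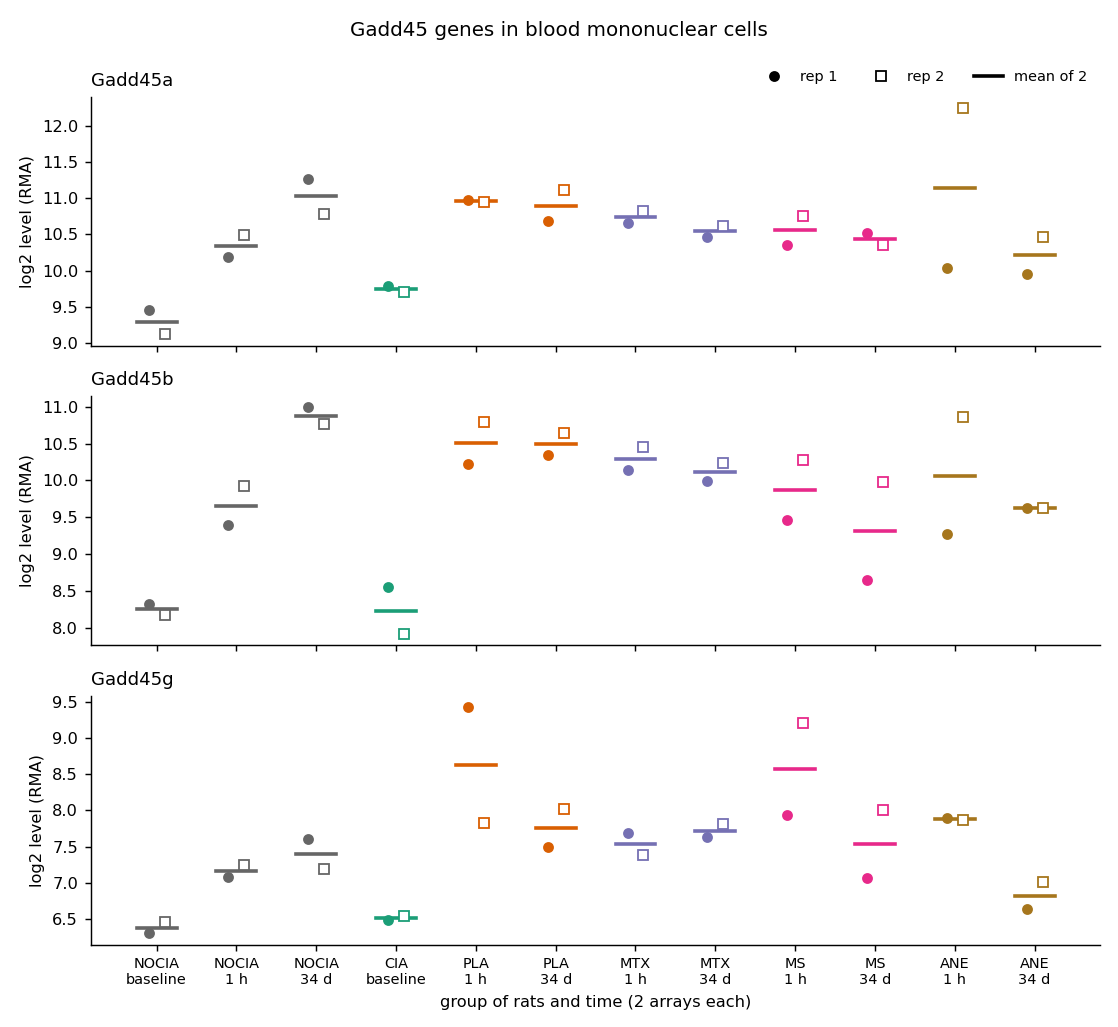
log2 level (vertical axes) of Gadd45a, Gadd45b and Gadd45g against the 12 groups (horizontal axis). Each array is a point, a filled circle for rep 1 and an open square for rep 2, with a bar at the group mean, and for each gene the 4 baseline arrays lie below all 20 later arrays, with Gadd45b at most at 8.55 at baseline and at least at 8.65 later.

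Every later array exceeded every baseline array for 3 of the 10 member probe sets and for 11 of all 20690, or 0.0532%. The 11 held 8 named genes, which were singled out after their values were seen. They were Cks2, a subunit that binds cyclin-dependent kinases (later minus baseline 1.87), Gadd45b (1.84), F3, tissue factor (1.34), Gadd45g (1.25), Gadd45a (1.18), Cox11 (0.81), Crybg2 (0.63) and Hspa12b (0.46). Averaged over groups, the 10 later groups against the 2 baseline groups gave a called rise (limma, Benjamini-Hochberg adjusted p under 0.05 over all probe sets) of Gadd45b by 1.84 ± 0.26 (SE), or 3.57-fold (adjusted p = 0.00257). Gadd45g rose by 1.25 ± 0.25 (2.39-fold, adjusted p = 0.0114) and Gadd45a by 1.18 ± 0.25 (2.26-fold, adjusted p = 0.0169). Bbc3 rose by 0.57 ± 0.16 (adjusted p = 0.0487) and Mdm2 by 0.68 ± 0.18 at its dimmest probe set (adjusted p = 0.041), while its brightest differed by 0.45 ± 0.16 (adjusted p = 0.132). Cdkn1a differed by 0.17 ± 0.23 and 0.90 ± 0.38 at its 2 probe sets (adjusted p = 0.687 and 0.192) and Ccng1 by -0.28 ± 0.12 (adjusted p = 0.199).

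In that comparison 5 of the 10 member probe sets were called, all higher, against 914 of 20690 (4.42%), of which 242 were higher and 672 lower. Gadd45b was called under each alternative tried, with an adjusted p between 1.09e-05 and 0.0375. The calls of Gadd45a and Gadd45g were lost when any 1 of the 4 baseline arrays was left out, with an adjusted p from 0.0715 (without NOCIA rep 1) to 0.135 (without NOCIA rep 2) for Gadd45a and from 0.0768 (without NOCIA rep 1) to 0.085 (without CIA rep 2) for Gadd45g. Those of Bbc3 and Mdm2 were lost on leaving out single arrays in most groups, with adjusted p up to 0.231 and 0.256. That of Bbc3 was also lost with the replicate block (0.0581), without a filter (0.0568) and with limma-trend (0.0561). Array weights, under which many more of all probe sets were called, added Mdm2 at its brightest (adjusted p = 0.00123), Cdkn1a at its dimmer probe set (0.00828) and Ccng1 (0.0163). Quantile normalization added Mdm2 at its brightest (0.0391). Without the 4 arrays that stood apart the differences of Mdm2, Cdkn1a and Ccng1 at these probe sets were 0.58, 1.20 and -0.35 and were called too. That fit had 1 array in some groups and called many more of all probe sets. The comparison was added after the values were seen, and time of sampling and what the rats had gone through by then cannot be told apart in it. The 8 measured neutrophil markers (of 12) moved with it: their mean centred level was -0.57 to -0.36 in the 4 baseline arrays and -1.29 to 2.12 later, where both MS 34-day arrays and ANE 1-hour rep 1 were the ones below -0.36. None of the 8 was called. B cell markers lay at 0.27 to 0.88 at baseline and -1.29 to 0.77 later, with 5 of 7 called lower (median difference -0.69), and T cell markers at 0.40 to 0.47 and -1.46 to 0.58, with 1 of 16 called lower. The part of these cell types in the Gadd45 difference was not tested.

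MTX was set against PLA at each time to ask what the drug added to an injection. At 1 hour no member was called. Gadd45g lay at 7.69 and 7.38 in MTX and at 9.43 and 7.82 in PLA. The arrays did not overlap, but PLA rep 1 stood 1.61 above PLA rep 2, so that most of the difference came from 1 rat. The difference was -1.09 ± 0.45 (0.471-fold, 95% interval -2.04 to -0.13, unadjusted p = 0.0285, adjusted p = 0.63). Without the 4 arrays that stood apart, PLA rep 2 among them, it was -1.89 (adjusted p = 0.0323), a value that sets the 2 MTX arrays against PLA rep 1 alone. Without PLA rep 1 instead it was -0.28 and was not called.

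Cdkn1a lay at 7.70 and 7.82 in MTX and at 8.74 and 8.06 in PLA at 1 hour at its brighter probe set. It did not overlap there either, with a difference of -0.64 ± 0.43 (interval -1.55 to 0.27, adjusted p = 0.633). At its other probe set the 2 MTX arrays, 6.97 and 7.10, lay below PLA rep 1 (8.02) and next to PLA rep 2 (7.09). Gadd45a lay at 10.66 and 10.83 against 10.97 and 10.95 (difference -0.21 ± 0.46, interval -1.18 to 0.76). Gadd45b lay at 10.14 and 10.45 against 10.22 and 10.79 (-0.20 ± 0.47, interval -1.20 to 0.79). Both Gadd45 differences were smaller than their SE. Ccng1 was the 1 member with both MTX arrays above both PLA arrays, at 9.23 and 9.13 against 8.71 and 8.99 (0.33 ± 0.22, interval -0.13 to 0.78, adjusted p = 0.632). Bbc3 differed by -0.19 ± 0.28 and Mdm2 by -0.09, -0.06 and 0.02 over its 3 probe sets, with arrays that overlapped.

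At 34 days no member was called between MTX and PLA either. Gadd45b lay at 9.99 and 10.24 in MTX and at 10.34 and 10.65 in PLA, with a difference of -0.38 ± 0.47 (interval -1.37 to 0.61). Gadd45a lay at 10.47 and 10.62 against 10.68 and 11.12 (-0.36 ± 0.46, interval -1.33 to 0.61). Bbc3 lay at 8.77 and 8.70 against 8.35 and 8.64 and differed by 0.24 ± 0.28 (interval -0.36 to 0.84). In each of these 3 the 2 arms did not overlap, yet no difference reached its SE. Gadd45g differed by -0.03, Ccng1 by -0.07 and the probe sets of Mdm2 by -0.17 to -0.01, and Cdkn1a differed by -0.14 ± 0.43 and -0.34 ± 0.69. Each member had an adjusted p of 1.

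**Figure D2:**
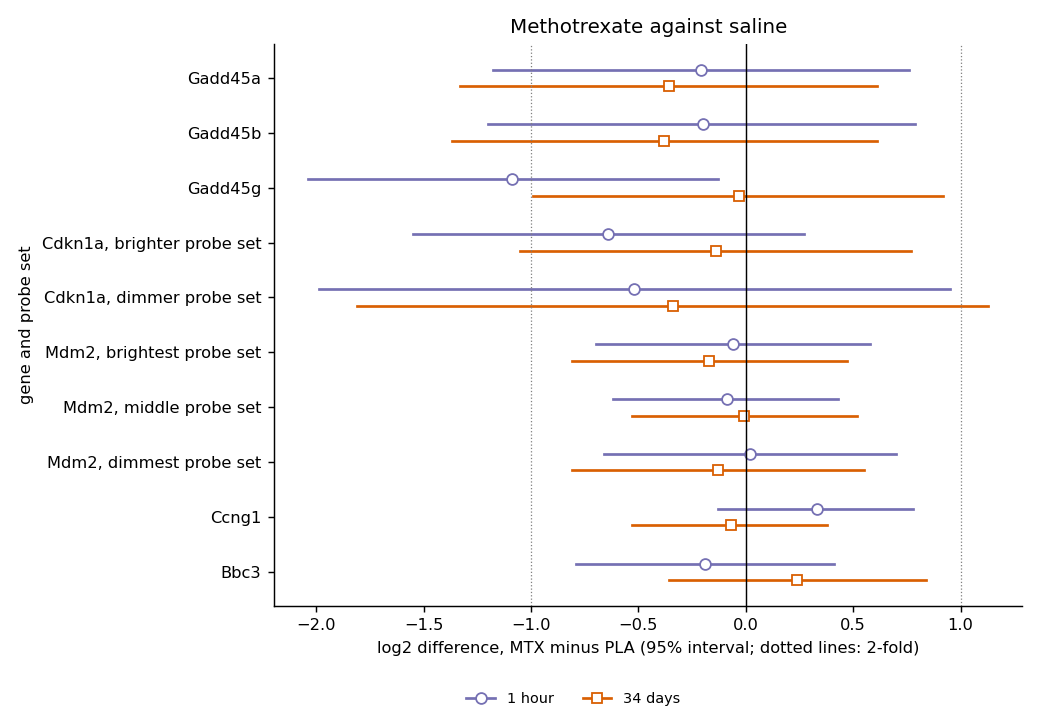
log2 difference between MTX and PLA (horizontal axis) for the 10 member probe sets (vertical axis) at 1 hour (circles) and 34 days (squares). Lines are 95% intervals, dotted lines mark 2-fold and open symbols an adjusted p above 0.05, and apart from Gadd45g at 1 hour (-2.04 to -0.13) every interval includes 0.

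limma called 0 of the 10 member probe sets in either comparison, against 0 of all 20690 (0.0%) in each. At an unadjusted p under 0.05 it found 1 member (Gadd45g) at 1 hour, against 1523 probe sets or 7.36%, and 0 at 34 days, against 153 or 0.739%. At 1 hour 3 member probe sets were lower and 1 higher in both MTX arrays than in both PLA arrays, where 21.0% and 33.9% of all probe sets were. At 34 days 4 were lower and 1 higher, against 18.1% and 18.0%. With 10 probe sets of 7 genes these counts are given as a description. The 95% intervals stayed within 2-fold for 5 of the 10 probe sets at 1 hour and 6 at 34 days, so larger differences of the others, among them Gadd45a, Gadd45b and Cdkn1a, remain possible at 2 rats per arm. The difference between MTX and PLA in the change from 1 hour to 34 days reached 1.05 ± 0.64 for Gadd45g (adjusted p = 0.846) and was smaller for the other members, with 0 of 10 called (0.0% of all) and 0 of 10 at an unadjusted p under 0.05 (3.36% of all). NK cell markers (12 measured of 14) lay at 0.63 and 0.74 in MTX and at -0.21 and -0.16 in PLA at 1 hour, and the other way round at 34 days, at -0.84 and -0.32 in MTX and 0.48 and 0.15 in PLA. At an unadjusted p under 0.05, 2 of the 12 were higher in MTX at 1 hour, 3 lower at 34 days and 9 lower in the difference of the changes. At 1 hour 4 of 7 B cell markers and 3 of 6 plasma cell markers were higher in MTX by the same measure. No marker of these lists was called, and their part in the members' differences was not tested.

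The Gadd45 genes lay above CIA baseline in every array of both arms, while no member passed the adjusted threshold. The share of all probe sets that stood apart from CIA baseline in this way was not counted. These comparisons share the 2 CIA baseline arrays, so their values are set side by side without a test of their likeness. Gadd45b differed from CIA baseline by 2.06 ± 0.47 in MTX at 1 hour, 2.27 ± 0.47 in PLA at 1 hour, 1.88 ± 0.47 in MTX at 34 days and 2.26 ± 0.47 in PLA at 34 days, which is 3.68-fold to 4.82-fold. Its adjusted p was 0.60, 0.22, 0.629 and 0.569 in that order, so it was called in none of the 4, although the lower end of its 95% interval was 0.89 or higher in each. With array weights Gadd45b was called in all 4 (adjusted p = 0.000131, 0.0338, 0.00582 and 0.000242). With only the groups compared it was called in MTX at 1 hour (0.0332) and PLA at 34 days (0.0334). More of all probe sets were called in these settings too. Gadd45g differed by 1.02 ± 0.45 in MTX and 2.11 ± 0.45 in PLA at 1 hour and by 1.21 and 1.24 at 34 days, and Gadd45a by 1.00, 1.22, 0.80 and 1.16 in the order given for Gadd45b.

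Ccng1 was the member on the lower side, at 8.66 and 8.64 in MTX and 8.71 and 8.73 in PLA at 34 days against 9.37 and 9.13 in CIA at baseline. These groups did not overlap, and how often this held among all probe sets was not counted. The differences of Ccng1 were -0.61 ± 0.22 in MTX (adjusted p = 0.684) and -0.53 ± 0.22 in PLA (adjusted p = 0.976). Bbc3 differed by 0.69 ± 0.28 in MTX and 0.44 ± 0.28 in PLA at 34 days, and Mdm2 at its brightest probe set by 0.47 ± 0.30 and 0.64 ± 0.30. Cdkn1a lay within 0.52 of CIA baseline in all 4 groups at its brighter probe set. At its dimmer one it differed by 0.02 ± 0.69 in MTX and 0.54 ± 0.69 in PLA at 1 hour and by 0.84 ± 0.69 and 1.17 ± 0.69 at 34 days. The last of these was called with only the groups compared (adjusted p = 0.0376) and with array weights (adjusted p = 0.0365). Array weights, under which many more of all probe sets were called, also called Ccng1 in MTX and PLA at 34 days (0.0175 and 0.0118). They called Bbc3 in MTX (0.0441) and Mdm2 at its brightest in PLA (0.00711) at that time as well. Mdm2 at its dimmest was called with them in MTX (0.0349) and PLA (0.00591) at 34 days, and Gadd45a in PLA at 34 days (0.00908). Gadd45g was called with them in PLA at 1 hour (0.0395) and in MTX and PLA at 34 days (0.0191 and 0.00607). Without such changes to the fit no member was called in any of the 4 comparisons, against 3 probe sets in all (0.0145%) for MTX at 1 hour and 0.0% in the other 3.

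At an unadjusted p under 0.05 the members behind the count were Gadd45a, Gadd45b and Gadd45g for MTX at 1 hour (3 of 10 probe sets, 1.24% of all) and for PLA at 1 hour (3 of 10, 6.89% of all). For MTX at 34 days they were Gadd45b, Gadd45g and Bbc3 on the higher and Ccng1 on the lower side (4 of 10, 5.85% of all). For PLA at 34 days they were the 3 Gadd45 genes and Mdm2 at its dimmest probe set on the higher and Ccng1 on the lower side (5 of 10, 4.85% of all). Without the 4 arrays that stood apart, which lowers the pooled spread, Gadd45b was called in all 4, with adjusted p = 0.00215 and 0.0481 at 1 hour and 0.0201 and 0.00266 at 34 days for MTX and PLA. In that fit PLA at 1 hour is rep 1 alone, which is assumed to vary like the other groups. Gadd45g was called there at 34 days in PLA (1.24, adjusted p = 0.0292) and at 1 hour (2.91, adjusted p = 0.000966), where the value rests on the 1 high array, since without PLA rep 1 instead it was 1.30 and was not called.

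No member was called between CIA and NOCIA rats at baseline. The largest differences were 0.64 ± 0.32 for Mdm2 at its dimmest probe set (7.58 and 7.60 in CIA against 7.11 and 6.78 in NOCIA), 0.92 ± 0.69 for Cdkn1a at its dimmer probe set (6.99 and 7.04 against 6.27 and 5.93) and 0.46 ± 0.46 for Gadd45a. In all 3 the CIA arrays lay above the NOCIA arrays, as they did for Gadd45g, Bbc3 and the highest probe set of Mdm2 and of Cdkn1a. At the other member probe sets the arrays overlapped. The share of all probe sets with arrays apart was not counted here, so the order of arrays is a description. The difference of Mdm2 at its dimmest was called with array weights (adjusted p = 0.0196) and that of Cdkn1a at its dimmer probe set with only the groups compared (0.023). In both settings many more of all probe sets were called. Gadd45b differed by -0.02 ± 0.47, Gadd45g by 0.14 ± 0.45 and Bbc3 by 0.14 ± 0.28. limma called 0 of the 10 probe sets, against 1 in all (0.00483%), and 0 passed an unadjusted p under 0.05, against 3.81% of all. Each member had an adjusted p of 1.

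In healthy rats the change over 34 days gave more called probe sets than any other comparison made here, and the cell death gene Bbc3 was called together with Gadd45a, Gadd45b and Mdm2. Bbc3 lay at 7.91 and 7.92 at baseline, at 8.33 and 8.13 at 1 hour and at 9.89 and 9.46 at 34 days. The last 2 arrays were the highest of all 24, with every other array at 8.85 or lower. Bbc3 rose by 1.77 ± 0.28, or 3.40-fold (adjusted p = 0.00129). Gadd45b moved from 8.33 and 8.18 over 9.40 and 9.92 to 10.99 and 10.76 and rose by 2.62 ± 0.47, or 6.14-fold (adjusted p = 0.00232). Gadd45a moved from 9.45 and 9.12 over 10.19 and 10.49 to 11.27 and 10.79 and rose by 1.75 ± 0.46, or 3.36-fold (adjusted p = 0.0205). For these 3 genes both 1-hour arrays lay between the baseline and the 34-day arrays.

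Mdm2 rose at 2 of its 3 probe sets, by 1.5 ± 0.32 at the dimmest (adjusted p = 0.00701) and by 1.19 ± 0.30 at the brightest (adjusted p = 0.017), and differed by 0.33 ± 0.25 at the middle one (adjusted p = 0.496). At the brightest it lay at 8.98 and 9.04 at baseline and at 10.25 and 10.17 at 34 days. Cdkn1a lay higher at 34 days at both probe sets but was not called. It moved from 7.28 and 7.83 to 8.56 and 8.74 at the brighter one (1.10 ± 0.43, adjusted p = 0.117) and from 6.27 and 5.93 to 7.95 and 8.19 at the dimmer one (1.97 ± 0.69, adjusted p = 0.0787). Gadd45g differed by 1.02 ± 0.45 (adjusted p = 0.172) and Ccng1 by -0.37 ± 0.22 (adjusted p = 0.336).

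**Figure D3:**
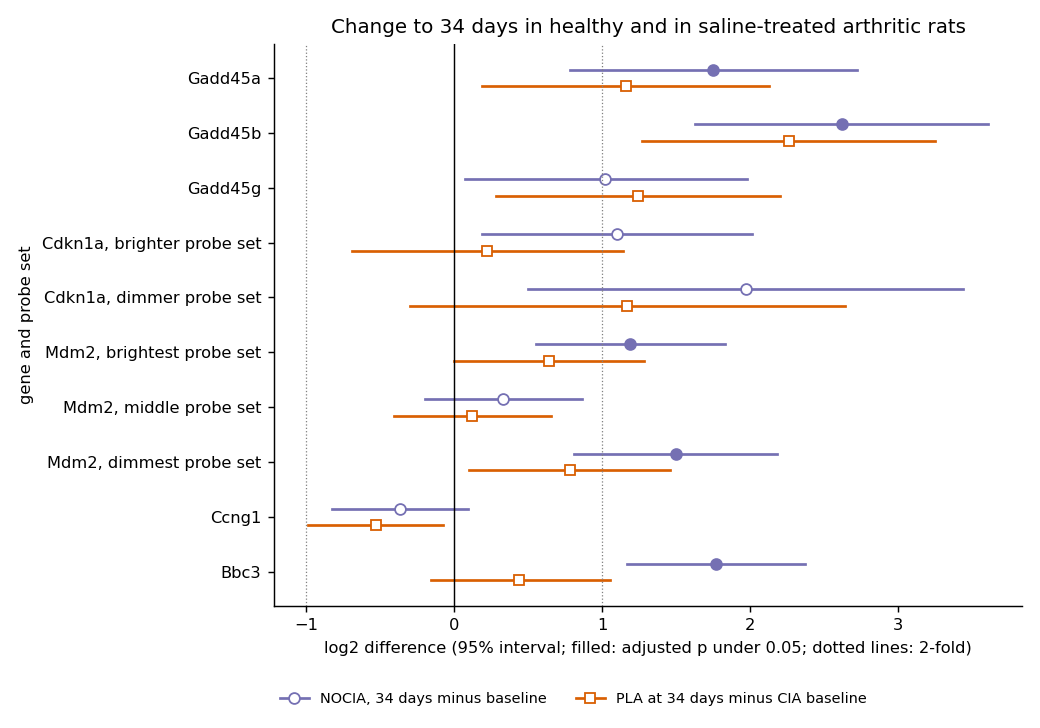
log2 difference from baseline to 34 days (horizontal axis) for the 10 member probe sets (vertical axis) in NOCIA rats (circles) and, for PLA rats, from the CIA baseline (squares). Lines are 95% intervals and filled symbols an adjusted p under 0.05, which 5 probe sets reached in NOCIA and 0 in PLA, while the difference between the 2 changes was called for no member.

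In NOCIA 5 of the 10 member probe sets were called, all higher, against 2478 of 20690 or 12% (1306 higher and 1172 lower). Both 34-day arrays exceeded both baseline arrays in 9 of 10, against 31.7% of all probe sets. The median difference over the brightest probe sets of the 7 genes was 1.19, against -0.02 over all probe sets. The calls of Bbc3 and Gadd45b held when any 1 of the 4 arrays was left out. That of Gadd45a was lost without any of them (adjusted p = 0.0749 without baseline rep 1, 0.157 without baseline rep 2, 0.187 without 34-day rep 1, 0.0546 without 34-day rep 2). That of Mdm2 at its brightest probe set was lost in the same 4 fits (0.101, 0.0969, 0.124 and 0.0738), and at its dimmest without baseline rep 2 (0.0847) or 34-day rep 1 (0.0681). Gadd45g and both probe sets of Cdkn1a were called without the 4 arrays that stood apart, none of which is a NOCIA array (adjusted p = 0.00218, 0.00356 and 0.000731). The comparison was added after the values were seen. B cell markers (7 measured of 10) moved with it, at 0.86 and 0.88 at baseline and -0.77 and -0.69 at 34 days. NK cell markers lay at 0.42 and 0.34 and at -1.09 and -0.72. T cell markers (0.40 and 0.47, then -0.08 and -0.32), plasma cell markers (0.26 and 0.21, then -0.20 and -0.25) and erythroid markers (0.16 and 0.25, then -1.17 and 0.11) were lower too. Neutrophil markers (-0.36 and -0.57, then 0.02 and 0.04) and platelet markers (-0.40 and -0.21, then 0.03 and 0.18) were higher, and monocyte markers overlapped. The part of any of these was not tested.

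At 1 hour in NOCIA rats, Gadd45b differed from baseline by 1.40 ± 0.47 and Gadd45a by 1.06 ± 0.46. Neither was called (adjusted p of 1), nor was any other member, against 1 probe set in all (0.00483%). At an unadjusted p under 0.05 these were the 2 members found, against 3.57% of all. Without the 4 arrays that stood apart Gadd45b was called (adjusted p = 0.022).

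PLA was set against NOCIA at 34 days to ask whether arthritic rats on saline differed from healthy ones. Bbc3 lay at 8.35 and 8.64 in PLA and at 9.89 and 9.46 in NOCIA, a difference of -1.18 ± 0.28 (0.44-fold, interval -1.79 to -0.58, adjusted p = 0.12). The groups stood well apart and the adjusted p missed the threshold. NK cell markers lay at 0.48 and 0.15 in PLA and at -1.09 and -0.72 in NOCIA, with 6 of 12 higher in PLA at an unadjusted p under 0.05 (median difference 1.29), and their part was not tested. The other members differed by less, with Gadd45g at 0.36 ± 0.45, Gadd45b at -0.38 ± 0.47, Gadd45a at -0.13 ± 0.46, Cdkn1a at -0.54 ± 0.43 and 0.12 ± 0.69, and Mdm2 between -0.24 and -0.08. limma called 0 of 10, against 16 in all (0.0773%), and at an unadjusted p under 0.05 found 1 (Bbc3), against 10.6% of all.

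The change of Bbc3 from baseline to 34 days was larger in NOCIA than in PLA by 1.32 ± 0.40 (interval 0.47 to 2.17, unadjusted p = 0.00462, adjusted p = 0.232) and larger than in MTX by 1.08 ± 0.40 (adjusted p = 0.526). B cell markers moved with the first of these, with a median of -1.23 and 4 of 7 lower in NOCIA at an unadjusted p under 0.05, and their part was not tested. Bbc3 was the 1 member at an unadjusted p under 0.05 in either test, against 9.8% and 7.5% of all probe sets. limma called 0 members in both, against 2 (0.00967%) and 5 (0.0242%) in all. Without the 4 arrays that stood apart the Bbc3 values were the same, the pooled spread was smaller and all 3 were called (adjusted p = 0.00525 for PLA against NOCIA, 0.0116 and 0.0394 for the 2 changes). They were called as well when only the groups compared were fitted (0.0206, 0.00779 and 0.0332) and with array weights. In these 2 settings, and without the 4 arrays, many more of all probe sets were called, and Bbc3 was not the only member. For the change against PLA, array weights called Mdm2 at its brightest and dimmest (adjusted p = 0.048 and 0.0311). Fitting only the groups compared called both probe sets of Cdkn1a (0.0464 and 0.0461). For the change against MTX, Mdm2 was called at its brightest and dimmest with array weights (0.0296 and 0.0302) and without the 4 arrays. At its brightest it was called with only the groups compared as well (0.0419).

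Some spread lay within groups. At 1 hour ANE rep 2 held the highest array of Gadd45a (12.25, against 10.03 in rep 1) and of Cdkn1a at its dimmer probe set (9.10, against 6.10), and its Gadd45b level of 10.86 stood against 9.27. The pairs differed by 2.22, 3.0 and 1.60, the widest of the 12 groups for each of these probe sets. Neutrophil markers lay at 2.12 in ANE rep 2 and at -1.22 in rep 1, and platelet markers at -0.34 and 0.88. Gadd45g did not follow, with 7.89 and 7.87 in the same arrays, nor did Bbc3, which was higher in rep 1 (8.85 against 8.28). The part of the cell make-up in the difference between these 2 rats was not tested.

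**Figure D4:**
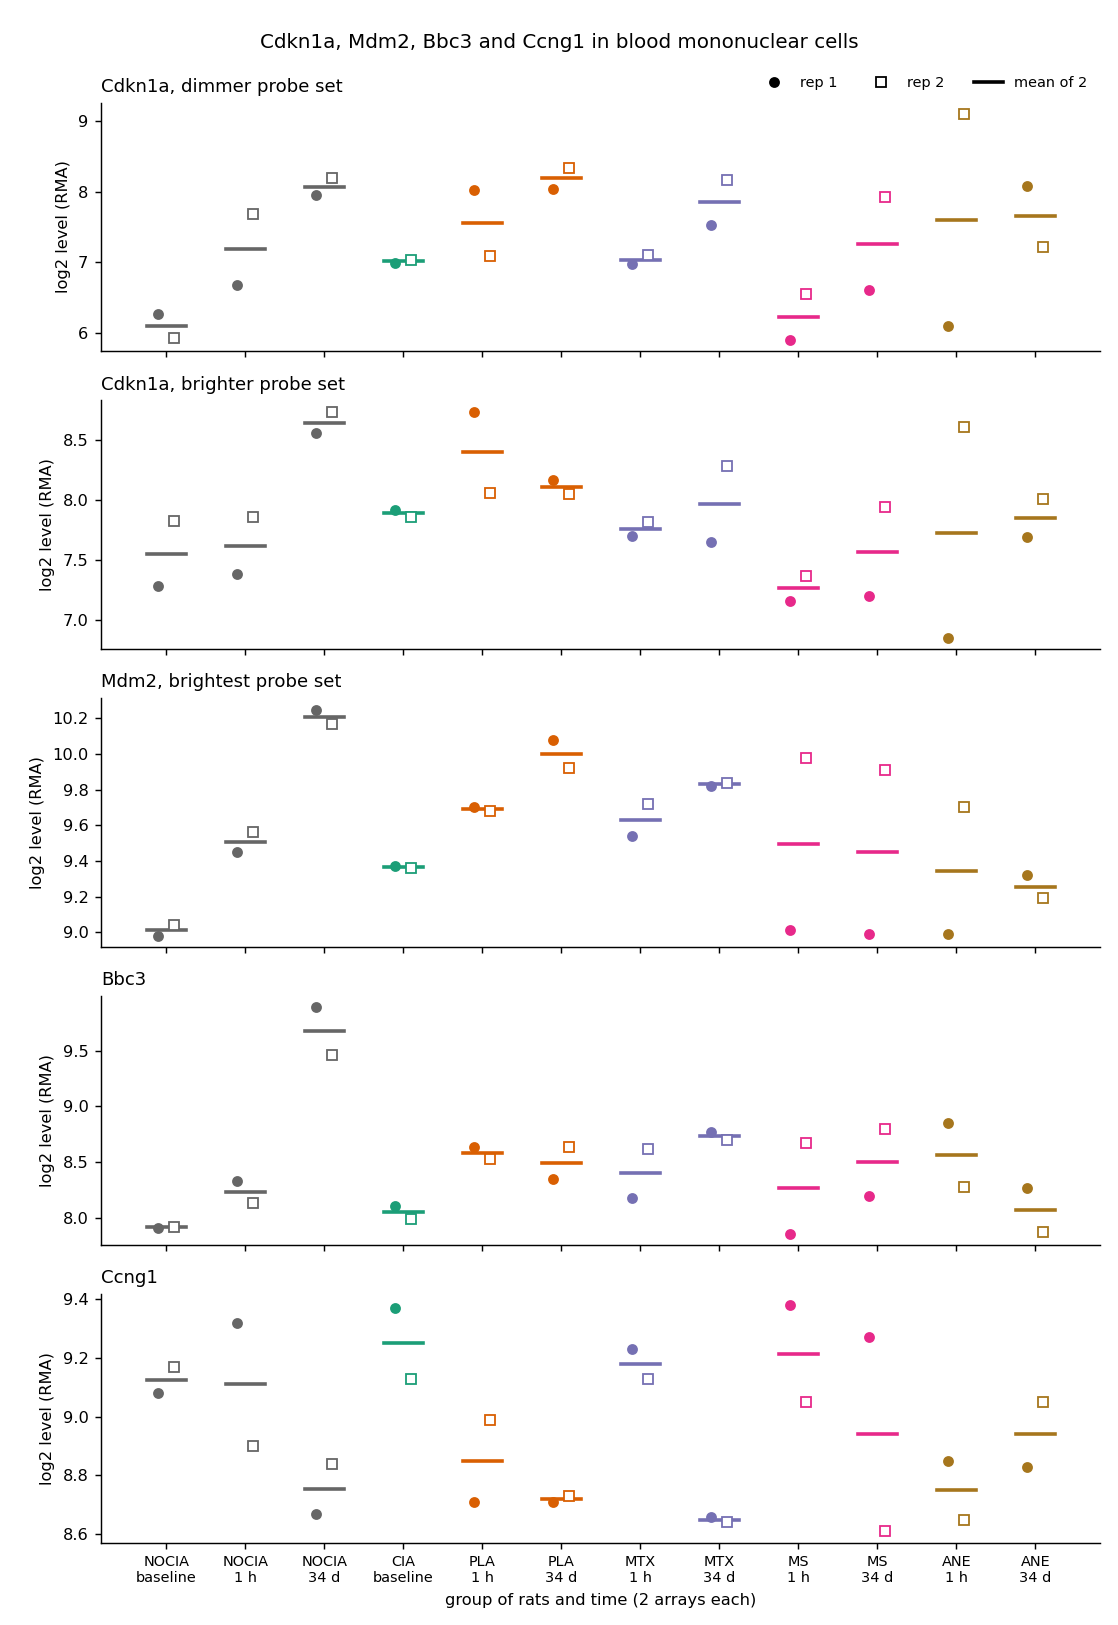
log2 level (vertical axes) of Cdkn1a at both probe sets, Mdm2 and Bbc3 and Ccng1 at their brightest or sole probe set against the 12 groups (horizontal axis). Points are arrays, with filled circles for rep 1, open squares for rep 2 and bars at group means, and Bbc3 is highest in NOCIA at 34 days (9.89 and 9.46) and the ANE 1-hour arrays 3.0 apart in the dimmer probe set of Cdkn1a.

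Over the 12 groups the SD of group means was set beside the SD of single arrays within groups, as a description. The SD of group means was 0.83 against 0.51 within groups for Gadd45b, 0.71 against 0.49 for Gadd45g and 0.46 against 0.29 for Bbc3. For Cdkn1a it was 0.38 against 0.47 at the brighter probe set and 0.66 against 0.78 at the other. For Gadd45a (0.55 against 0.50), Mdm2 at its brightest probe set (0.33 against 0.31) and Ccng1 (0.21 against 0.20) the 2 values lay close together. A mean of 2 arrays varies less than a single array, so these values alone do not tell whether groups differed. In the test of variation over the 12 groups Gadd45b was called (adjusted p = 0.0349), Bbc3 (0.0615) and Gadd45g (0.0707) were not, and the other 7 probe sets had an adjusted p from 0.187 to 0.765. That is 1 of 10 against 467 of all, or 2.26%. With array weights, where many more of all probe sets were called too, most members were called. These were Gadd45a (adjusted p = 0.0019), Gadd45g (0.00136), Bbc3 (0.000503), Mdm2 at its brightest and dimmest (0.000535 and 0.000297), Cdkn1a at its dimmer probe set (0.0118) and Ccng1 (0.0178). After quantile normalization Gadd45g (0.0144), Bbc3 (0.0168) and Mdm2 at its dimmest (0.0331) were called. The Gadd45b call was lost without any 1 of 16 arrays, the 4 baseline, 4 MTX and 4 PLA arrays among them, with an adjusted p of 0.0529 (without PLA 1-hour rep 1) to 0.141 (without NOCIA baseline rep 2).

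The order of the group means of Gadd45b ran from CIA (8.24) and NOCIA (8.26) at baseline over MS at 34 days (9.32), ANE at 34 days (9.62), NOCIA at 1 hour (9.66), MS (9.87) and ANE (10.06) at 1 hour, MTX at 34 days (10.11) and 1 hour (10.30) and PLA at both times (10.50) to NOCIA at 34 days (10.88). The step from baseline to MS at 34 days was the 1 step of 11 that exceeded the SD within groups. For Gadd45g that step lay between ANE at 1 hour (7.88) and MS at 1 hour (8.58), below PLA at 1 hour (8.62), and for Bbc3 between MTX (8.74) and NOCIA (9.68) at 34 days. For Gadd45a, Cdkn1a, Mdm2 and Ccng1 no step between neighbours exceeded it. Gadd45a had its lowest mean in NOCIA at baseline (9.28) and Mdm2 likewise (9.01), and both had NOCIA at 34 days near or at the top (11.03 and 10.21). Ccng1 had its order turned, with MTX (8.65) and PLA (8.72) at 34 days lowest and CIA at baseline (9.25) highest.

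Probe sets of one gene did not always move alike. Over the 24 arrays the brightest and the dimmest Mdm2 probe set correlated at 0.94, and the middle one with them at 0.76 and 0.53. The 2 of Cdkn1a correlated at 0.79. Over the 12 group means Gadd45a and Gadd45b correlated at 0.92, Gadd45a and Gadd45g at 0.76, Mdm2 and Bbc3 at 0.83, and Ccng1 with every other member below 0 (-0.64 to -0.33). These are descriptions over points that share the step between baseline and later groups, and members were measured on the same arrays.

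The genes whose group means followed a member most closely were found over the 12 groups by Pearson's r. For Gadd45b they were Ier5, an immediate early response gene (0.926), Gadd45a (0.925) and Icam1, an adhesion molecule of activated cells (0.904). For Gadd45a they were Gadd45b, Baz1a, a chromatin remodelling subunit (0.906), and Il1r2, the decoy receptor of interleukin 1 (0.90). Bbc3 was followed by Ulk1, the kinase that starts autophagy (0.978), Ube2l3 (0.96) and Ppp2r2d (0.958). Mdm2 was followed by Icos, a T cell costimulator (0.975), Gosr2 (0.972) and Zfpl1 (0.964), and Cdkn1a by the copper transporter Slc31a1 (0.946), Zfp503 and the myeloid factor Cebpa (both 0.92). For Gadd45g they were Ccsap (0.906), the metallothionein Mt2A (0.875) and Fgd6 (0.854), and for Ccng1 Copz1 (0.903), Klhl20 and Phf20l1 (both 0.898). These values describe 12 means each and were picked as the highest among all genes past the filter.

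Other genes of the pathway did not share one direction. Of 35 further p53 target genes 30 were measured and 26 passed the filter. In NOCIA from baseline to 34 days 3 of these 26 rose, Ier5 (1.54 ± 0.29, adjusted p = 0.00307), Sesn1, a sestrin that restrains mTOR (1.16 ± 0.36, adjusted p = 0.0444), and Ppm1d, the phosphatase that turns p53 signalling off (1.04 ± 0.27, adjusted p = 0.0177). In the same comparison 2 fell, the RNA-binding protein gene Zmat3 by 0.91 ± 0.20 (adjusted p = 0.00714) and Apaf1, of the apoptosome, by 0.80 ± 0.24 (adjusted p = 0.0424). Their median was 0.05, against -0.02 over all probe sets. Of 10 tested genes of p53 and its regulators 1 rose, the ubiquitin ligase Rchy1 (1.17 ± 0.27, adjusted p = 0.0101). Of 4 tested BTG and TOB genes, antiproliferative relatives of Btg2, Btg3 rose by 2.85 ± 0.45 (adjusted p = 0.00113), more than any member. None of the 5 other cyclin-dependent kinase inhibitors and none of the 3 relatives and partners of cyclin G was called (medians 0.16 and -0.03).

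In the BCL2 family, to which Bbc3 belongs, 2 of 12 tested genes fell in NOCIA over 34 days, the effector Bak1 (by 0.83 ± 0.17, adjusted p = 0.00631) and the BH3-only gene Bid (by 0.85 ± 0.25, adjusted p = 0.0365), and 0 rose. Of the 9 kinases and targets of Gadd45 proteins 2 fell, Mapk14, which encodes p38 alpha (by 0.89 ± 0.18, adjusted p = 0.00546), and Ccnb1, cyclin B1 (by 0.87 ± 0.25, adjusted p = 0.0344). Of 20 stress and NF-kB early genes 3 rose, Jun (2.29 ± 0.49, adjusted p = 0.00686), Ddit3, also known as Chop (1.79 ± 0.35, adjusted p = 0.00385), and Maff (1.32 ± 0.34, adjusted p = 0.0199), while Egr1 fell by 2.33 ± 0.43 (adjusted p = 0.00306). Of 27 cell cycle genes 3 fell, Mki67, the proliferation marker Ki-67 (by 1.97 ± 0.40, adjusted p = 0.00508), Ccnb2 (by 1.61 ± 0.32, adjusted p = 0.00455) and Ccnb1, and 0 rose, with a median of -0.56. These counts stand against 12% of all probe sets called.

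Between MTX and PLA no gene of these 9 lists was called at either time. At 1 hour 4 of the 20 stress genes had an unadjusted p under 0.05, all lower in MTX, namely Fos (-1.39 ± 0.50), Jun (-1.35 ± 0.49), Zfp36, a regulator of mRNA decay (-0.96 ± 0.40), and Ddit3 (-0.92 ± 0.35), each with an adjusted p of 0.63 as for Gadd45g. Of the other p53 targets Zmat3 (0.49 ± 0.20) and Sertad1 (-0.78 ± 0.35), of the kinase inhibitors Cdkn2d (-0.66 ± 0.27) and of the BCL2 family Bcl2a1 (1.49 ± 0.45) did so. At 34 days they were Maff (-0.85 ± 0.34), Fosb (-1.39 ± 0.56) and Bcl2a1 (-1.10 ± 0.45), with an adjusted p of 1. The cell cycle list had 0 such genes at both times, with medians of 0.14 and -0.14 against 0.07 and 0.0 over all probe sets. Of all probe sets 7.36% had an unadjusted p under 0.05 at 1 hour (959 higher and 564 lower in MTX) and 0.739% at 34 days.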

How the data were processed

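RNA of rat blood mononuclear cells was hybridised to Affymetrix rat expression arrays, 1 array per rat. The authors deposited log2 values per probe set, made with RMA of the affy package per the labels, whereas the study's methods describe MAS5 with detection calls. Versions were not given in the sources used here. RMA summarises all arrays jointly and compresses differences at low signal. The deposited values were used without further scaling. A probe set was kept where at least 2 arrays held it above their own 40th percentile (20690 of 31099). Of all probe sets 20832 had 1 symbol, 436 several and 9831 none, and no gene was named from the last 2 kinds.

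A linear model with 12 group means was fitted with limma 3.58.1 in R 4.3.3 (12 residual degrees of freedom). Called means a Benjamini-Hochberg adjusted p under 0.05 over all probe sets kept. Errors are SE of the fit. An exact permutation test of 2 arrays against 2 cannot go below 0.333. With 2 rats per group the spread behind each p is shared by all groups, and the number of arrays limits the precision. The fit was tested on simulated data.

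The members and gene lists were chosen with earlier results of these data known, and 6 comparisons (the 3 of NOCIA over time and against PLA, the 2 differences of change from NOCIA, and later against baseline groups) were added after the values were seen. Named were all members at each probe set, the probe set with the highest mean leading, up to 4 genes per list with the smallest p, the 3 genes closest to each member over the 12 group means, and any gene behind a count of 5 or fewer. Alternatives were the replicate number as a block, only the groups compared, other filters, quantile normalization, limma-trend, array weights, the mean of a gene's probe sets and leaving out each array or the 4 that stood apart. Upstream sequences were taken from RefSeq on GRCr8 (7 of the 9 members matched).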

Additional observations from a re-analysis of the deposited data

How the results depend on the processing

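For the members, 150 results under 2330 alternative values kept their direction and side of the threshold in 2158, lost the call in 72 and gained it in 100. The sign changed in 50 of these values, over 30 results, each time by a value under 1 SE in both settings and in no called value. The replicate numbers did not pair the rats: over 66 pairs of groups the correlation of rep 1 minus rep 2 ran from -0.756 to 0.805 (median -0.00596), above 0.1 in 25. With the replicate block the called probe sets were 0 for MTX against PLA at both times, 1 (from 3) for MTX at 1 hour against CIA, 10 (from 16) for PLA against NOCIA, 2482 for NOCIA at 34 days, 909 for later against baseline and 369 for variation. Other counts of called probe sets moved as follows, and the cause was not tested. For MTX against PLA at 1 hour (0) they were 2 with only the groups compared, 1 with array weights, 9 without the 4 arrays that stood apart and 0 to 2 on leaving out 1 array, and at 34 days 0 to 1 on leaving out 1 array. For the difference of their changes (0) they were 2, 1 and 7 in the same 3 settings. For MTX at 1 hour against CIA (3) they were 47, 117 and 38, with 1 without a filter, 0 with the stricter filter and 0 to 0 on leaving out 1 array, and for MTX at 34 days (0) 1010 with array weights and 5 without the 4 arrays. For PLA at 1 hour (0) they were 36, 9 and 7, with 1 after quantile normalization and 0 to 3 on leaving out 1 array. For PLA at 34 days (0) they were 130, 1723 and 68, with 1 after quantile normalization and 1 with the mean of probe sets. For CIA against NOCIA (1) they were 759, 1020 and 255, with 2 without a filter, 2 after quantile normalization and 1 to 2 on leaving out 1 array. For NOCIA at 1 hour (1) they were 47, 7 and 119, with 2 under the stricter filter, 3 after quantile normalization, 2 with the mean of probe sets and 1 to 3 on leaving out 1 array. For NOCIA at 34 days (2478) they were 6995, 7109 and 6302, and 627 to 1225 on leaving out 1 array. For PLA against NOCIA (16) they were 2429, 3550 and 2083, with 3 under the stricter filter, 87 after quantile normalization and 1 to 4 on leaving out 1 array. For the change of NOCIA against that of PLA (2) they were 2993, 3397 and 1903, with 25 after quantile normalization, 1 with the mean of probe sets and 2 to 3 on leaving out 1 array. Against that of MTX (5) they were 1153, 1846 and 1171, with 3 under limma-trend, 1 with the mean of probe sets and 2 to 3 on leaving out 1 array. For later against baseline (914) they were 5826 with array weights, 3767 without the 4 arrays, 597 with the mean of probe sets and 74 (without CIA baseline rep 2) to 2096 (without MS 1-hour rep 2). For variation over the groups (467) they were 905 after quantile normalization, 5216, 4366, 304 and 37 to 2559 in the same order.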
